A study of Homo sapiens with 6 samples.

Results

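The genes described here encode the machinery that licenses origins of DNA replication and drives the replication fork, in SETDB1 knockout and control H1299 cells. SETDB1 is a histone methyltransferase that deposits the repressive mark H3K9me3. The set was chosen by name: 52 genes, from the origin recognition complex to the E2F and cyclin E genes that act at the start of S phase. All 52 were present among the 18677 genes of the count table, and all 52 were among the 17675 genes that passed the filter on low counts.

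Replication is prepared in G1, when the origin recognition complex, CDC6 and CDT1 load the ring-shaped MCM2-7 helicase onto DNA, and geminin keeps loaded origins from being licensed again. At the start of S phase CDC45 and the GINS complex join the MCM ring to form the active helicase. DNA polymerases, the sliding clamp PCNA, its loader RFC and the single-strand binding protein RPA then copy the DNA, and chromatin assembly factors rebuild nucleosomes behind the fork. Many of these genes are transcribed under E2F factors, which is why their RNA is often read as a group in proliferating tumour cells.

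H1299 is a long-established line from a human lung tumour of the non-small cell type. The knockout group held 3 libraries from cells carrying the guide hSETDB1 sg1, and the control group held 3 libraries from cells carrying Control sg2. Both lines grew in RPMI-1640 medium with serum and puromycin, so that each group is 1 guide in 1 line kept under selection, and guide and knockout cannot be told apart. The labels do not say whether the 3 libraries of a group came from separate cultures, and p-values therefore measure the spread between these libraries only.

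The libraries held 29532057 to 34320279 counts in the knockout group and 30729681 to 35941288 counts in the control group, and no pair of replicates looked like a copy. SETDB1 itself stood at 40.6, 36.1 and 39.1 CPM (read counts scaled to a common library size) in the knockout libraries, against 45.0, 44.0 and 41.6 CPM in the control libraries. Its log2 fold change, knockout over control, was -0.17 ± 0.06 (standard error), with an adjusted p of 0.0151 by edgeR's quasi-likelihood test. The call was lost without knockout replicate 2, where the adjusted p was 0.0896, and with scaling by library size alone, where it was 0.0605. RNA of the targeted gene does not measure its protein, which was not assayed here. Of the markers of the line's origin, the lung lineage genes summed to 0.664 to 1.05 CPM in the knockout and 0.601 to 0.946 CPM in the control libraries, with 2 of 6 measured. The epithelial keratins summed to 483 to 496 CPM in the knockout and 943 to 1013 CPM in the control libraries, with 3 of 5 measured, and the part of this difference in the results on replication genes was not tested.

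Most of the replication genes differed between the lines, but by little. At an adjusted p under 0.05, with Benjamini-Hochberg adjustment over all genes tested, 24 members were higher and 14 were lower in the knockout, and 14 did not pass. The share called was 73.1% of members, beside 63.5% of all genes tested and 71.0% of the 9966 genes with a mean of at least 10 CPM, so the count of calls is near the background. The share called higher was 46.2% of members, beside 31.9% of all genes and 33.4% of the genes of at least 10 CPM. The share called lower was 26.9%, beside 31.6% and 37.7%. In 25 members all 3 knockout libraries lay above the controls, beside 33.5% of all genes and 34.7% of those of at least 10 CPM. In 13 they all lay below, beside 33.3% and 39.0%. The groups thus did not overlap in 73.1% of members, beside 66.8% and 73.7%, so this share too is near the background. In the cells' RNA as a whole, the 52 genes took 6010, 6058 and 6100 CPM in the knockout libraries, against 5460, 5501 and 5737 CPM in the control libraries. The 3 knockout sums were above the 3 control sums, and the ratio of the group means was 1.09. In bulk RNA, a larger share of cells in S phase and more of this RNA per cell cannot be told apart.

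The changes were small beside those of the transcriptome. The median absolute log2 fold change was 0.18 over the members, beside 0.33 over all genes tested and 0.27 over the genes of at least 10 CPM. Only 4 members were called with a log2 change of at least 0.5 in size, which is 7.69% of them, beside 32.1% of all genes and 23.8% of the genes of at least 10 CPM. POLD1 and RPA1 were the 2 higher ones, beside 16.3% of all genes, and ORC3 and ASF1A the 2 lower ones, beside 15.8%. Of the 38 called members, 34 changed by less than 1.5-fold, beside 57.0% of all called genes. The standard errors ran from 0.05 to 0.08 on the log2 scale, and every member had at least 329 counts in every library.

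**Figure D1:**
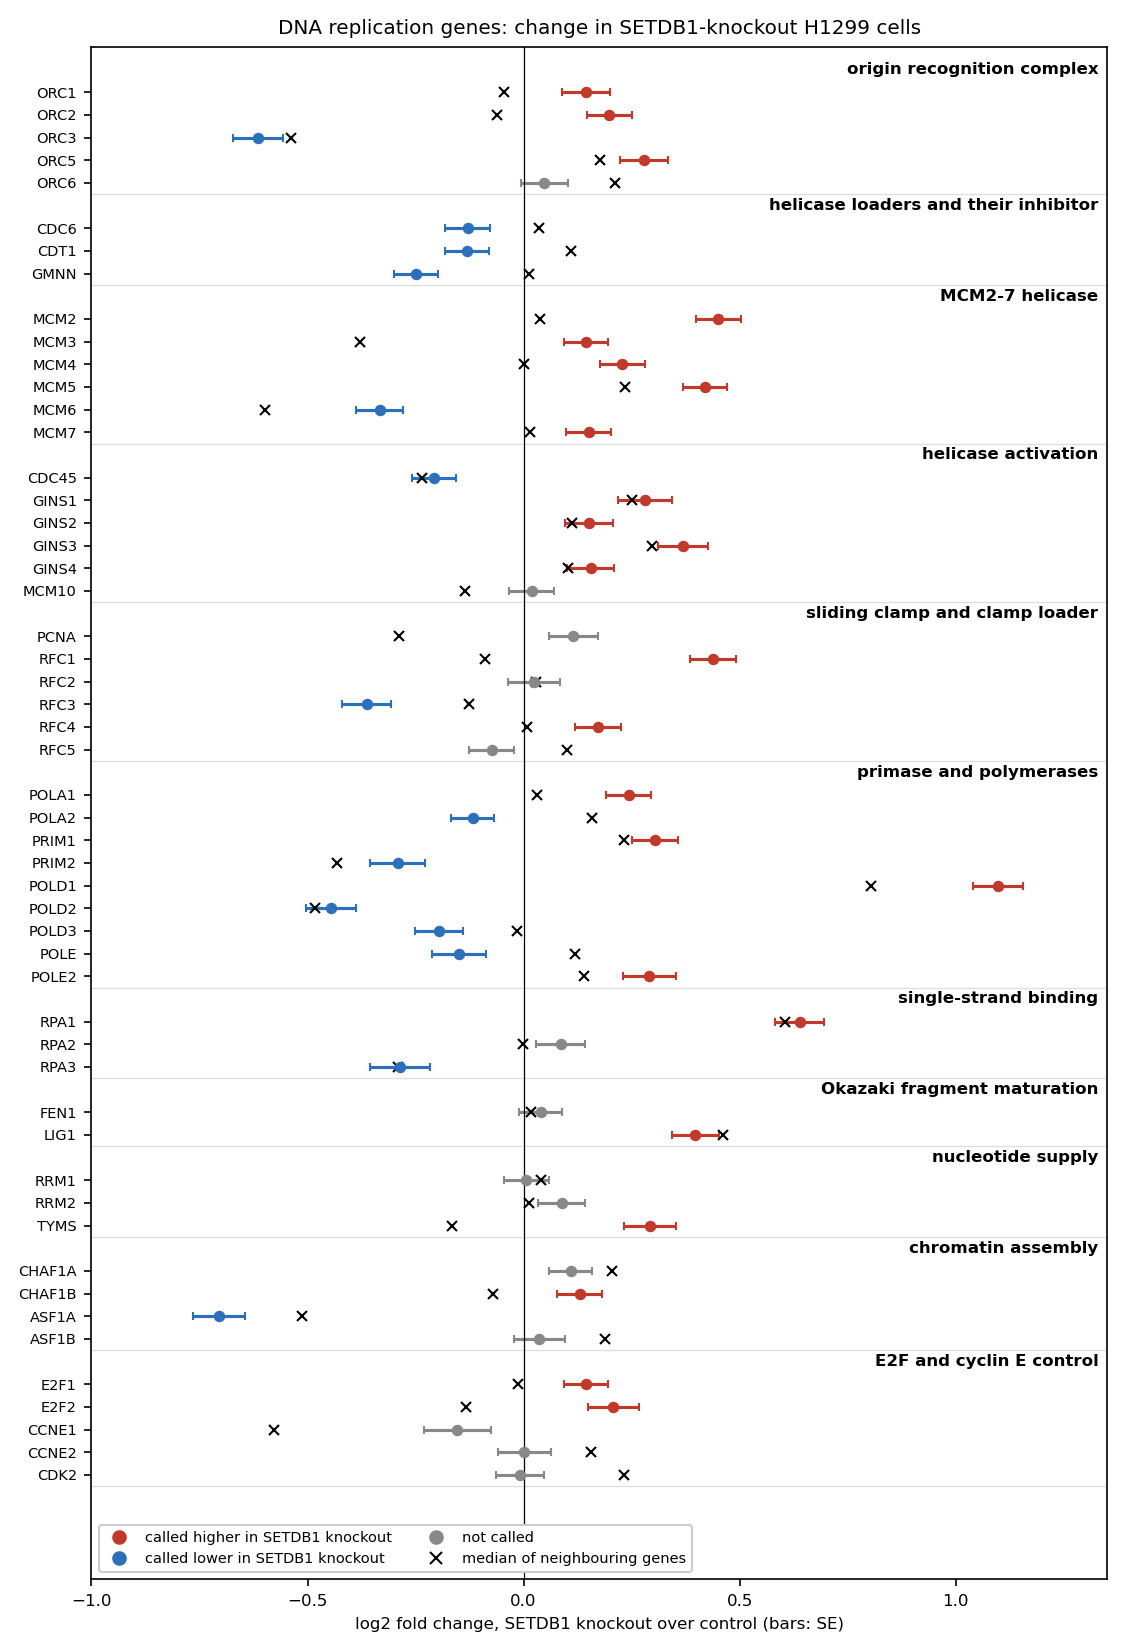
Log2 fold change of each of the 52 members, knockout over control, with bars of 1 standard error, grouped by role in replication. Most points lie within 0.5 of zero, and POLD1 at 1.10 and ASF1A at -0.71 mark the ends.

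The position of a gene on its chromosome went with its change. For each gene, the median log2 fold change of the 25 expressed genes on each side was taken as the level of its neighbourhood. Across the 52 members the gene's own change and that of its neighbourhood had a Pearson r of 0.73 and a Spearman rho of 0.52. Across all 17603 genes with a neighbourhood r was 0.25 and rho 0.43, and across 9958 genes of at least 10 CPM r was 0.43 and rho 0.57. These are descriptions across genes, which are not independent replicates. For stretches, a limit of 0.25 on the neighbourhood was set after the values were seen.

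Of the 5 members in stretches that were higher in the knockout (GINS1, GINS3, POLD1, RPA1 and LIG1), all 5 were called higher, beside 67.2% higher and 8.63% lower among 2191 genes in such stretches. Of the 9 in stretches that were lower (ORC3, MCM3, MCM6, PCNA, PRIM2, POLD2, RPA3, ASF1A and CCNE1), 6 were called lower and 1, MCM3, higher, beside 63.3% lower and 9.46% higher among 3162 genes. The other 38 members gave 18 higher and 8 lower calls, which is 47.4% and 21.1%, beside 31.4% and 27.6% of 12250 genes. The neighbourhood median was then taken out of the knockout libraries, as a fixed value for each gene. In that fit 20 members were called higher and 13 lower, beside 30.2% and 26.6% of all genes. The median came from these same data, and its own error does not enter the adjusted p. Of the 38 calls, 24 kept their direction and call in that fit, MCM6 was called in the other direction, and 13 lost the call. A further 8 members that had not passed were called in that fit: PCNA, CCNE1 and MCM10 higher, and ORC6, RFC5, ASF1B, CCNE2 and CDK2 lower. Some of these calls depended on the window. With the median of 10 genes on each side taken out instead, 20 of the 38 calls were kept. CDC45 and PRIM2 were then called in the other direction, as MCM6 was. CDC6, RFC3, POLA1 and POLE2 lost the call only with this smaller window, and MCM10 and RFC5 did not pass with it. What part the neighbourhood has in each gene's change was not tested.

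**Figure D2:**
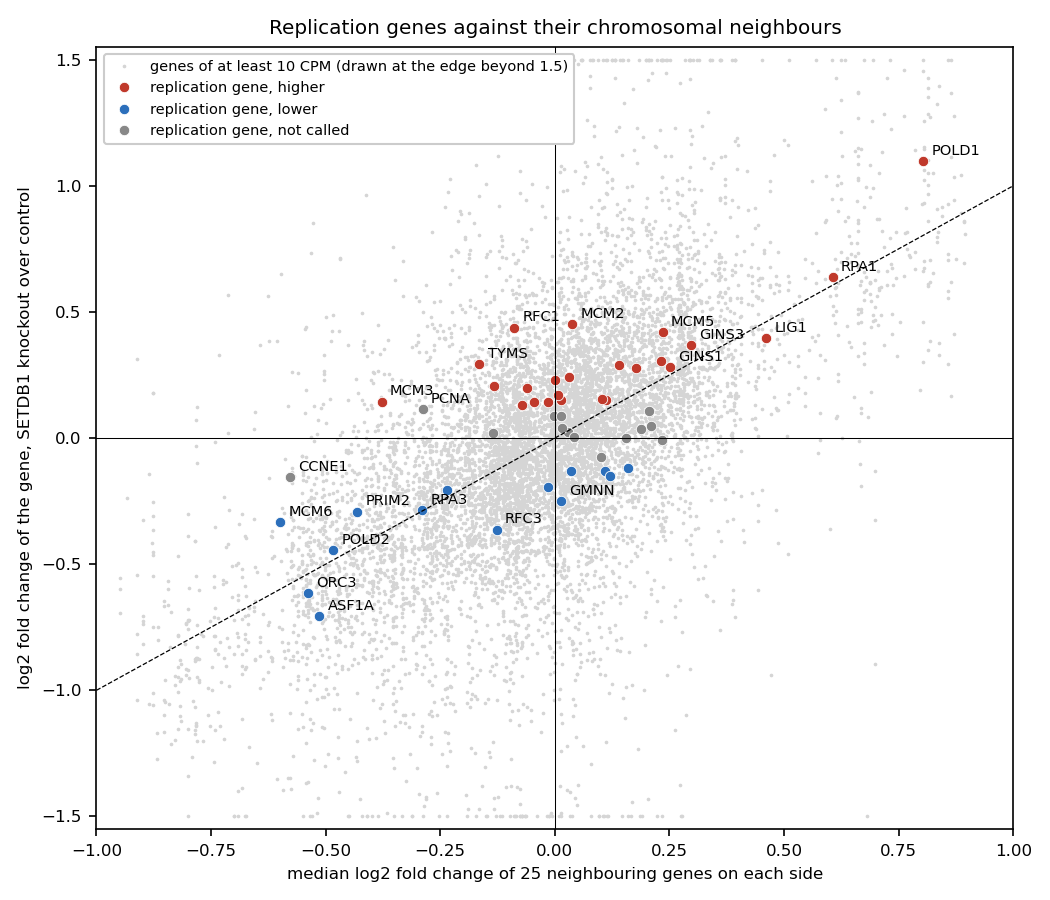
Each member's log2 fold change, knockout over control (vertical axis), against the median of the expressed genes around it (horizontal axis), over grey points for all genes of at least 10 CPM; the dashed line marks equal change. POLD1 and RPA1 lie at the upper right, ORC3 and ASF1A at the lower left, and MCM3, MCM2, RFC1 and TYMS well above the dashed line.

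The promoters of these genes share sequence that the choice of members did not use. RefSeq promoters, 250 bases before to 50 bases after the start on GRCh38.p14, were matched by symbol for 44 of the 52 members; CCNE2, CDK2, GINS4, MCM4, MCM5, POLD3, RPA2 and RPA3 had no entry. An E2F-type motif, TTTNNCGC on either strand, was found in 24 of the 44 promoters, which is 54.5%, beside 12.7% of the 11144 genes tested with a promoter and 6.89% of all 35116 promoters. The CCAAT box, on either strand, was in 27 of the 44 promoters, or 61.4%, beside 43.0% of the tested genes and 34.6% of all promoters. The motif TTTGAA, the core of the CHR element of late cell cycle genes, was in 2 of the 44, or 4.55%, beside 13.7% of the tested genes and 15.2% of all promoters. Members with the E2F-type motif gave 13 higher and 8 lower calls among 24, with a median log2 fold change of 0.14. Those without it gave 8 higher and 4 lower calls among 20, with a median of 0.06. Of all genes tested, 31.9% were called higher and 31.6% lower, so calls in both directions are not particular to members with or without the motif. The motif stood in promoters of members called higher and of members called lower.

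The 5 promoters below are shown because they hold that contrast: MCM3, RFC1 and TYMS were called higher, MCM6 lower, and POLD1, with the largest change of the set, had no match. Each line gives the 180 bases that end at the RefSeq start, read 5′ to 3′ on the gene's strand, with E2F-type matches in capitals. They lie at chr6:52284743-52284922 (minus strand) for MCM3, chr2:135876444-135876623 (minus) for MCM6, chr4:39366363-39366542 (minus) for RFC1, chr18:657473-657652 (plus) for TYMS and chr19:50384143-50384322 (plus) for POLD1, which has 2 starts in the table. The MCM3 stretch holds 2 matches. In MCM6 there are 4 matches, in pairs on opposite strands that overlap in the same letters, so that each pair reads as 1 run of capitals. RFC1 and TYMS hold 1 match each. A match is a run of letters and does not show that an E2F protein binds there.
MCM3: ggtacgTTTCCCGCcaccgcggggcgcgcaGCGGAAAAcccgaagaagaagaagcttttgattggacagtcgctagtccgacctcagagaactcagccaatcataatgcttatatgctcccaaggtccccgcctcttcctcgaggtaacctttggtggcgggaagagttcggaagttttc
MCM6: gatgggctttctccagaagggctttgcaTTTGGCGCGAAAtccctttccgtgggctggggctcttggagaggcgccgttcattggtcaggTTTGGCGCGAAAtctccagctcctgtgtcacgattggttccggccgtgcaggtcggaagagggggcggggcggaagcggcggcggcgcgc
RFC1: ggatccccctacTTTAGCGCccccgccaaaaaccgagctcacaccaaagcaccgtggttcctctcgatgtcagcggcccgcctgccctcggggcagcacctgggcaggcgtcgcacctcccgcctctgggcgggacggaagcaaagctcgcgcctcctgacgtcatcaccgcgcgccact
TYMS: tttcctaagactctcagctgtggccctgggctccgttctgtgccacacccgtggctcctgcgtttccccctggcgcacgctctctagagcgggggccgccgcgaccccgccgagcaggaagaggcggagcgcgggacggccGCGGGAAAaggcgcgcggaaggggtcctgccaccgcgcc
POLD1: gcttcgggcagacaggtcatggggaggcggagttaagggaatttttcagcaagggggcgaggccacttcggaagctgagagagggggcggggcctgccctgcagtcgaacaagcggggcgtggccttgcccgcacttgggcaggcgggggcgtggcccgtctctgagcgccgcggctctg

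Licensing begins with the origin recognition complex (ORC), the ATPase that marks origins. Of its 5 members, ORC1, ORC2 and ORC5 were higher, ORC3 was lower and ORC6 did not pass. ORC3 (chromosome 6, 87590067 to 87667453, plus strand), which had the highest level per length of these subunits in both groups, had 56.4, 58.3 and 53.9 CPM in the knockout libraries, against 81.4, 83.9 and 92.8 CPM in the control libraries. Every knockout library was below every control library. The log2 fold change was -0.61 ± 0.06 (adjusted p = 1.67e-08), and its neighbourhood stood at -0.54. With the neighbourhood out, the change was -0.08 (adjusted p = 0.279). ORC5 averaged 43.7 ± 1.63 CPM in the knockout and 36.03 ± 0.541 CPM in the control libraries (SD, n = 3 each), a log2 change of 0.28 ± 0.05 (adjusted p = 1.79e-04), and also lost its call with its neighbourhood of 0.18 taken out, at 0.10 (adjusted p = 0.122). ORC2 gained 0.20 ± 0.05 on the log2 scale (adjusted p = 0.00234) against a neighbourhood of -0.06. ORC1, the subunit that binds nucleosomes, gained 0.14 ± 0.06 (adjusted p = 0.0299), a call lost without knockout replicate 1 or 3 or control replicate 1 or 2, where its highest adjusted p was 0.179. ORC6 stood at 0.05 ± 0.05 (adjusted p = 0.464).

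The 3 genes that govern helicase loading all fell. CDC6 and CDT1 bring the MCM ring to ORC, and GMNN encodes geminin, the inhibitor of CDT1. Their summed level was 214 ± 1.79 CPM in the knockout and 241 ± 3.18 CPM in the control libraries (SD, n = 3 each), with no overlap between the groups. GMNN, which had the highest level per length among these genes, had 68.8, 71.2 and 68.4 CPM in the knockout libraries, against 81.5, 81.6 and 84.6 CPM in the control libraries. The groups did not overlap, and the log2 fold change was -0.25 ± 0.05 (adjusted p = 2.32e-04), against a neighbourhood of 0.01. CDT1 changed by -0.13 ± 0.05 (adjusted p = 0.0308) and CDC6 by -0.13 ± 0.05 (adjusted p = 0.0388). Both are close to the threshold. CDT1 lost its call without each library in turn except control replicate 3, with adjusted p up to 0.0942. CDC6 lost it without control replicate 3 (0.124) or knockout replicate 3 (0.144). Both also lost it with scaling by library size alone.

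The MCM2-7 helicase, the motor that unwinds DNA, was the role with the largest summed level. It took 2191 ± 29.6 CPM in the knockout and 1928 ± 39.9 CPM in the control libraries (SD, n = 3 each), again with no overlap. MCM2, MCM3, MCM4, MCM5 and MCM7 were higher, and MCM6 was lower. MCM2 (chromosome 3, 127598223 to 127622436, plus strand) gained the most, at 277, 288 and 299 CPM in the knockout libraries, against 209, 209 and 214 CPM in the control libraries. All knockout libraries lay above the control libraries, and the log2 fold change was 0.45 ± 0.05 (adjusted p = 2.95e-07), with 0.41 left once its neighbourhood was out. MCM5 followed at 0.42 ± 0.05 (adjusted p = 4.97e-07), of which 0.18 was left (adjusted p = 0.00414). MCM4 averaged 562 ± 3.90 CPM in the knockout and 480.1 ± 9.57 CPM in the control libraries, a log2 change of 0.23 ± 0.05 (adjusted p = 6.98e-04) in a neighbourhood near zero.

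MCM6 (chromosome 2, 135839626 to 135876426, minus strand) was the exception among the helicase subunits. Its level was 149, 153 and 152 CPM in the knockout libraries, against 182, 184 and 205 CPM in the control libraries. The groups did not overlap, and control replicate 3 was the highest. The log2 fold change was -0.33 ± 0.06 (adjusted p = 2.82e-05), while its neighbourhood stood lower still, at -0.60. With the neighbourhood out, MCM6 was higher in the knockout, at 0.27 (adjusted p = 3.99e-04), like the other 5 subunits, each of which was above zero in that fit. MCM3 (chromosome 6, 52264009 to 52284881, minus strand) was higher by 0.14 ± 0.05 (adjusted p = 0.0192) although the genes around it stood at -0.38, and its change with the neighbourhood out was 0.52. The MCM3 call was lost without knockout replicate 1 or 3 or control replicate 2, where the highest adjusted p was 0.0887.

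MCM7 had the highest level of all members per kilobase of exon, at 172 CPM per kilobase in the knockout and 155 in the control libraries. It had 746, 752 and 767 CPM in the knockout libraries, against 670, 677 and 694 CPM in the control libraries, so the groups stood apart. The log2 change was 0.15 ± 0.05 (adjusted p = 0.0170), a call lost without knockout replicate 2 or 3 or control replicate 2, with adjusted p up to 0.0936. The 6 subunits form a ring with 1 copy of each, and their levels per kilobase of exon were unequal. The length used is that of all annotated exons of a gene, 7338 bases for MCM5 and 3650 for MCM3. It is not the length of the transcript in use, and how far it sets the order of the subunits was not tested. After MCM7 came MCM4, at 80.6 ± 0.559 CPM per kilobase in the knockout and 68.8 ± 1.37 in the control, and MCM3, at 73.1 ± 2.06 in the knockout and 66.2 ± 1.02 in the control (SD, n = 3 each). MCM2 and MCM6 stood at 58.7 ± 2.24 and 36.7 ± 0.532 CPM per kilobase in the knockout. In the control they stood at 43.0 ± 0.667 and 46.2 ± 3.03, a gap about as large as the SD of MCM6. MCM5 was the lowest of the ring, at 22.9 ± 0.709 CPM per kilobase in the knockout and 17.1 ± 0.130 in the control.

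**Figure D3:**
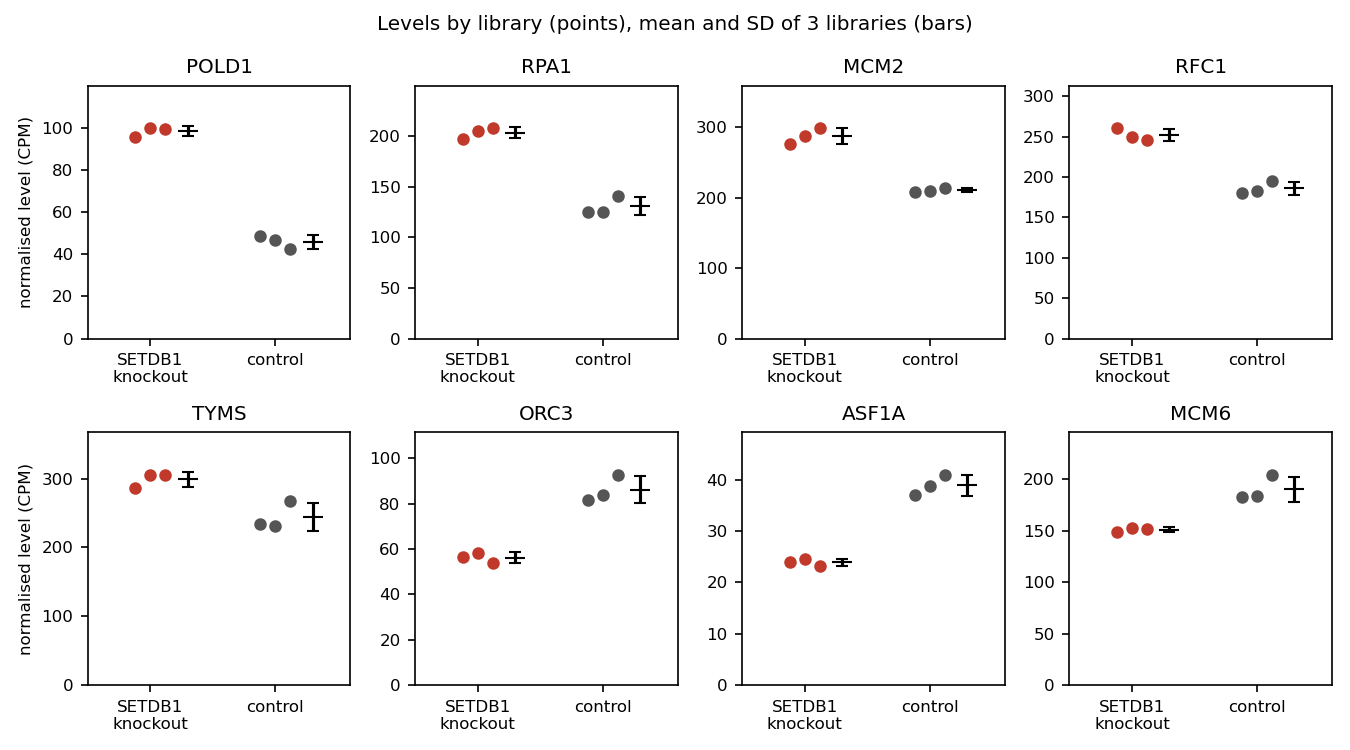
Level in each of the 6 libraries (points), in CPM on axes that start at 0, with the mean and SD of 3 libraries (bars), for 8 members, knockout libraries left of control libraries. POLD1 and RPA1 lie above their controls and ORC3 and ASF1A below them in every library, and MCM6 lies below its controls where MCM2 lies above.

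Helicase activation held 4 higher genes, 1 lower and 1 that did not pass. CDC45, which joins the ring to start unwinding and had the highest level per length of this role, had 62.7, 60.2 and 62.0 CPM in the knockout libraries, against 69.4, 73.5 and 70.7 CPM in the control libraries. It was lower in every knockout library, by -0.21 ± 0.05 on the log2 scale (adjusted p = 0.00148), with a neighbourhood of -0.24. With that taken out CDC45 stood at 0.03. With the median of 10 genes on each side out instead, CDC45 was called higher, at 0.14 (adjusted p = 0.0251). The partners of CDC45 in the active helicase, the 4 GINS subunits, were all higher before any neighbourhood was taken out: GINS3 by 0.37 ± 0.06 (adjusted p = 1.65e-05), GINS1 by 0.28 ± 0.06 (6.49e-04), GINS4 by 0.16 ± 0.06 (0.0189) and GINS2 by 0.15 ± 0.06 (0.0220). The neighbourhoods of all 4 were also above zero, at 0.30, 0.25, 0.10 and 0.11 in the same order, and with these out none of the 4 passed, at 0.03 to 0.07. GINS2 and GINS4 lost their calls without knockout replicate 3 or control replicate 2, with adjusted p up to 0.161. MCM10, a scaffold of the starting fork, stood at 0.02 ± 0.05 (adjusted p = 0.774).

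The clamp and its loader gave 2 higher genes, 1 lower and 3 that did not pass. RFC1 (chromosome 4, 39287456 to 39366375, minus strand), the large subunit of the complex that opens PCNA and sets it on DNA, had 260.5, 249.4 and 246 CPM in the knockout libraries, against 180.3, 182 and 195 CPM in the control libraries. The groups were far apart, at 0.44 ± 0.05 on the log2 scale (adjusted p = 5.78e-07). Its neighbourhood was at -0.09, and 0.53 was left with it out. RFC3, a small subunit, moved the other way, at 48.7 ± 3.15 CPM in the knockout and 62.7 ± 1.84 CPM in the control libraries (SD, n = 3 each). The log2 change of RFC3 was -0.36 ± 0.06 (adjusted p = 1.44e-05), and -0.24 with the neighbourhood out (adjusted p = 0.00152). With the median of 10 genes on each side out instead, RFC3 lost its call, at -0.12 (adjusted p = 0.0771). RFC4 was higher by 0.17 ± 0.05 (adjusted p = 0.00769), a call lost only without control replicate 2 among the libraries (adjusted p = 0.0517). RFC2 at 0.02 ± 0.06 (adjusted p = 0.742) and RFC5 at -0.07 ± 0.05 (adjusted p = 0.232) did not pass.

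PCNA, the clamp itself, is often used as a marker of proliferation. It had 143, 156 and 149.8 CPM in the knockout libraries, against 133, 133 and 148 CPM in the control libraries. The groups overlapped, since control replicate 3 stood above knockout replicate 1. The log2 change was 0.12 ± 0.06 (adjusted p = 0.0838), and it passed without control replicate 3 (0.0104) or knockout replicate 1 (0.0390). It also passed with scaling by library size alone, at 0.16 (adjusted p = 0.0184). Its neighbourhood stood at -0.29, and with that out PCNA was called higher, at 0.40.

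The polymerases split, with 4 of 9 higher and 5 lower, and their summed level was 719 ± 8.74 CPM in the knockout and 713 ± 5.06 CPM in the control libraries. The split ran through each holoenzyme. POLD1 (chromosome 19, 50384204 to 50418016, plus strand), the catalytic subunit of polymerase delta, which copies the lagging strand, had 95.5, 99.8 and 99.6 CPM in the knockout libraries, against 48.8, 46.8 and 42.3 CPM in the control libraries. The lowest knockout library was above the highest control library by a wide margin, and the change was 2.14-fold. Its log2 fold change of 1.10 ± 0.06 (adjusted p = 2.58e-12) was the largest of the set. The genes around it stood at 0.80, and 0.29 was left with them out (adjusted p = 2.13e-04). POLD2, the accessory subunit of the same enzyme, had 98.8, 112 and 113 CPM in the knockout libraries, against 143, 147 and 151 CPM in the control libraries. It was lower in every library, by -0.45 ± 0.06 on the log2 scale (adjusted p = 1.25e-06), in a neighbourhood at -0.48, and stood at 0.04 with it out. POLD3, which also serves break-induced replication, was lower by -0.20 ± 0.05 (adjusted p = 0.00405) with a flat neighbourhood. Per kilobase of exon, POLD1 reached 19.9 and POLD2 29.2 CPM in the knockout, against 9.32 and 39.8 CPM in the control.

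In the primase complex, which lays down the first primers, PRIM1 was higher by 0.30 ± 0.05 (adjusted p = 4.67e-05), with 0.07 left once its neighbourhood of 0.23 was out. Higher, too, was POLA1, the catalytic subunit of polymerase alpha, by 0.24 ± 0.05 (4.00e-04). PRIM2 was lower by -0.29 ± 0.06 (adjusted p = 5.53e-04). The neighbourhood of PRIM2 was at -0.43, and with it out PRIM2 stood at 0.14 (adjusted p = 0.0713). With the median of 10 genes on each side out instead, PRIM2 was called higher, at 0.20 (adjusted p = 0.0114). POLA2 was lower by -0.12 ± 0.05 (adjusted p = 0.0469), a call lost without each library in turn except control replicate 1, with adjusted p up to 0.119. In polymerase epsilon, the leading-strand enzyme, POLE2 was higher by 0.29 ± 0.06 (adjusted p = 3.92e-04). POLE, the catalytic subunit, had 218, 182 and 195 CPM in the knockout libraries, against 226, 224 and 209 CPM in the control libraries. These groups overlapped through knockout replicate 1, and POLE was the only called member with such an overlap. Its change of -0.15 ± 0.06 (adjusted p = 0.0420) lost the call without knockout replicate 2 or 3 or control replicate 1 or 2, with adjusted p up to 0.227.

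The 3 subunits of RPA, which coats single-stranded DNA as 1 complex, went apart. RPA1 (chromosome 17, 1829702 to 1900082, plus strand), the large DNA-binding subunit, had 197, 205 and 208 CPM in the knockout libraries, against 125, 125 and 141 CPM in the control libraries. The groups did not overlap, and the change was 1.56-fold, or 0.64 ± 0.06 on the log2 scale (adjusted p = 6.80e-09). The neighbourhood was at 0.61, and 0.03 was left with it out (adjusted p = 0.636). RPA2, the subunit phosphorylated under replication stress and the highest of the 3 per length, had 76.7, 78.9 and 81.6 CPM in the knockout libraries, against 72.8, 70.6 and 80.1 CPM in the control libraries. Its groups overlapped, at 0.09 ± 0.06 (adjusted p = 0.193), though it passed without control replicate 3 (0.0301). RPA3, the small subunit, was lower by -0.29 ± 0.07 (adjusted p = 0.00122) in a neighbourhood at -0.29, and stood at 0.00 with it out.

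Of the 2 genes that join Okazaki fragments, LIG1 was higher and FEN1 did not pass. LIG1 (chromosome 19, 48115445 to 48170603, minus strand), the ligase that seals the fragments, averaged 75.3 ± 3.91 CPM in the knockout and 57.1 ± 2.02 CPM in the control libraries (SD, n = 3 each). Its log2 change was 0.40 ± 0.05 (adjusted p = 3.03e-06), and its neighbourhood was at 0.46, with -0.06 left once that was out. FEN1, the flap nuclease, had 91.8, 93.0 and 93.5 CPM in the knockout libraries, against 89.4, 89.3 and 92.1 CPM in the control libraries. The lowest knockout library was just under the highest control library, and the change was 0.04 ± 0.05 (adjusted p = 0.504).

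In nucleotide supply, TYMS (chromosome 18, 657604 to 673578, plus strand), the thymidylate synthase targeted by fluoropyrimidines, was the only one of 3 that passed. It had 287, 306 and 305 CPM in the knockout libraries, against 234, 232 and 267 CPM in the control libraries. The groups did not overlap, and the log2 change was 0.29 ± 0.06 (adjusted p = 2.78e-04), or 0.46 with its neighbourhood of -0.16 out. Of its exon bases 39.1% are also exon of ENOSF1 on the opposite strand, whose own log2 change was 0.50 ± 0.06. Whether the counting used strand is not stated in the labels or notes, so reads of the 2 genes may not be separable there. RRM2, the regulated subunit of ribonucleotide reductase, stood at 0.09 ± 0.05 (adjusted p = 0.163) and passed without control replicate 3 (0.0416). RRM1, its large subunit, stood at 0.01 ± 0.05 (adjusted p = 0.933).

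Among chromatin assembly genes, ASF1A (chromosome 6, 118894220 to 118909167, plus strand), a chaperone of histones H3 and H4, fell. It had 23.9, 24.5 and 23.3 CPM in the knockout libraries, against 37.0, 38.8 and 41.0 CPM in the control libraries. The groups did not overlap, and ASF1A was 1.63-fold lower in the knockout, at -0.71 ± 0.06 on the log2 scale (adjusted p = 3.60e-09). Its neighbourhood was at -0.51, and -0.19 was left with it out (adjusted p = 0.0102). Its paralogue ASF1B, which is tied to proliferation and was higher per length, had 52.4, 51.5 and 49.9 CPM in the knockout libraries, against 46.1, 50.4 and 53.4 CPM in the control libraries. The groups of ASF1B overlapped, at 0.04 ± 0.06 (adjusted p = 0.605). The CAF-1 subunit CHAF1B was higher by 0.13 ± 0.05 (adjusted p = 0.0354), a call that was lost without each library in turn except control replicate 3, with adjusted p up to 0.157. CHAF1A stood at 0.11 ± 0.05 (adjusted p = 0.0662) although every knockout library was above every control library.

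The genes that start S phase moved little. E2F2 was higher by 0.21 ± 0.06 (adjusted p = 0.00469) and E2F1 by 0.14 ± 0.05 (adjusted p = 0.0186). E2F1 lost its call without control replicate 2 or 3 or knockout replicate 3, with adjusted p up to 0.0869, and E2F2 without knockout replicate 3 (0.0513). CDK2, the kinase that cyclin E activates, had 124, 112 and 113 CPM in the knockout libraries, against 115, 113 and 122 CPM in the control libraries. The groups overlapped, and the change was -0.01 ± 0.06 (adjusted p = 0.913). CCNE2, a cyclin E gene, stood at 0.00 ± 0.06 (adjusted p = 0.982). Of its exon bases 37.0% are also exon of INTS8 on the opposite strand, whose own log2 change was 0.39 ± 0.05. As for TYMS, reads of the 2 genes may not be separable there. CCNE1, the other cyclin E gene and the member with the lowest level per length in the knockout, stood at -0.15 ± 0.08 (adjusted p = 0.0905) in a neighbourhood at -0.58, and passed without control replicate 2 (0.0445).

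**Figure D4:**
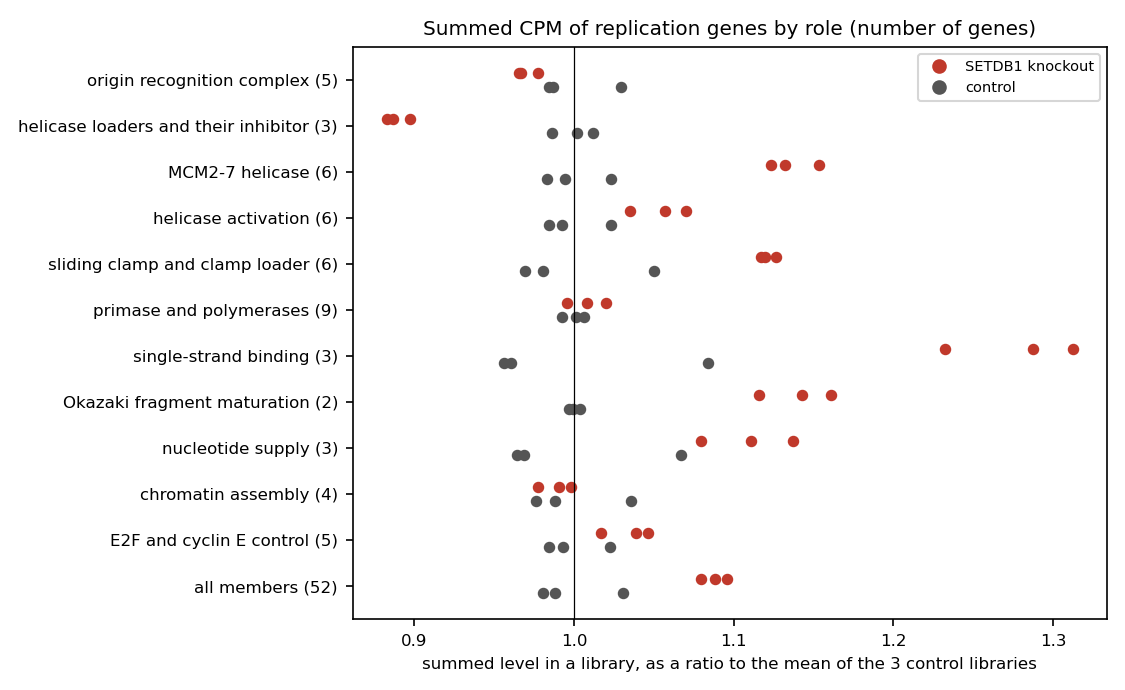
Summed CPM of each role in each library, divided by the mean of the 3 control libraries, with knockout points above control points in each row. MCM2-7 lies at 1.12 to 1.15 and RPA at 1.23 to 1.31 in the knockout libraries, the helicase loaders lie at 0.883 to 0.897, and the polymerases, chromatin assembly and E2F and cyclin E genes overlap between groups.

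Sums by role hide opposite moves of their members. RPA had 308, 321.8 and 328.1 CPM in the knockout and 239, 240.1 and 270.9 CPM in the control libraries, a gap carried by RPA1, since RPA3 was lower. The clamp and its loader had 658 ± 2.75 CPM in the knockout and 587 ± 25.6 CPM in the control libraries, and RFC1 was the largest part of that difference. The ORC genes had 256 ± 1.76 CPM in the knockout and 264 ± 6.68 CPM in the control libraries, where the fall of ORC3 outweighed the gains of 3 other subunits. The 2 ligation genes had 168 ± 3.35 CPM in the knockout and 147 ± 0.506 CPM in the control libraries, and helicase activation had 288 ± 4.81 CPM in the knockout and 273 ± 5.66 CPM in the control libraries (SD, n = 3 each throughout).

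With scaling by library size alone, or to the upper quartile, POLA2 and POLE lost their calls as CDC6 and CDT1 did, and CHAF1A passed. With DESeq2 in place of edgeR, ORC1, CDC6, POLA2 and CHAF1B lost theirs, with adjusted p of 0.0558 to 0.0709. Of the 38 called members, 25 kept their call without each single library, and 13 lost it in at least 1 of these fits. POLD1 and ASF1A were called in the same direction under all 18 alternatives, including a test against a 1.5-fold change, which 17.3% of all genes but no other member passed. Beyond CCNE2 and TYMS, 7 members share over 10% of their exon bases with another annotated gene: POLA2, MCM2, GINS4, RRM2, PRIM1, CDK2 and GINS3. PCNA, RPA2, RRM2, TYMS, RFC3, RFC5, POLD2 and FEN1 have annotated pseudogenes that could take a part of their reads, so their levels are less certain.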

How the data were processed

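RNA was measured by sequencing in 3 SETDB1 knockout and 3 control libraries of H1299 cells. Per the labels' protocols, libraries were made from total RNA with an Illumina TruSeq kit. Per the submitters' processing notes, FastQC, TopHat2, HTSeq and GRCh38.p7 were used; versions, annotation, strandedness and filters are not stated there. A single table was deposited, which holds raw counts per gene, with 18677 rows whose largest count is never under 11.

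Gene IDs were matched to GENCODE 29 without their version, which named 18595 rows. In R 4.3.3, edgeR 4.0.16 filtered low counts by group (17675 genes kept), scaled by TMM and ran the quasi-likelihood test with robust dispersion, without a replicate term. Adjustment was by Benjamini-Hochberg across the 17675 genes, at a threshold of 0.05; the standard error is the log2 change divided by the square root of F. 1 count equals 0.0282 to 0.0334 CPM. Neighbourhoods used genes with a mean log2 CPM over 3. Levels per length used all annotated exon bases of a gene, each counted once. The fit was tested on simulated counts.

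Values per library were given for members called with a log2 change of at least 0.5 and for the member with the highest level per length in each role; other members were chosen after their values were seen. The members and all lists were chosen with earlier results of these data known. Same-numbered libraries had correlations of deviations of 0.0878, -0.0628 and 0.0248. These are small, and with 3 libraries in each group they cannot settle whether numbers pair them. Alternatives were DESeq2 1.42.0, limma-voom 3.58.1, other scalings, filters and thresholds, a replicate block, neighbourhoods taken out and each library left out.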

Additional observations from a re-analysis of the deposited data

How the results depend on the processing

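Counts of 24 members higher and 14 lower, among 11219 genes called, stayed within 1.5 times of these values under all alternatives but the test against a 1.5-fold change, with which 1 member was higher, 1 lower and 3052 genes were called. The median log2 fold change of the members was 0.10, and moved to 0.14 with library size alone, 0.13 with upper-quartile scaling, 0.0623 with the neighbourhood of 25 genes on each side out and 0.0666 with that of 10. Leaving out 1 library each gave 16 to 26 members higher, 10 to 12 lower, medians of 0.0720 to 0.122, and 10237 to 11094 genes called. With the replicate number as a block, 26 members were higher and 14 lower, 11703 genes were called and the median was 0.10. Not every library deviated most like its own number, and whether the numbers pair libraries cannot be told from so few. Among single members, 755 of the alternative values kept direction and call, 120 lost the call, 19 gained it and 42 changed direction. With library size alone CDK2 was 0.0335, with upper-quartile scaling 0.0251, and by limma-voom CCNE2 was -0.000618. With 25 neighbours out, the log2 change was 0.27 for MCM6, 0.14 for PRIM2, 0.00417 for RPA3, 0.0387 for POLD2, -0.00349 for RFC2, -0.15 for CCNE2, -0.0352 for RRM1, -0.16 for ORC6, -0.0964 for CHAF1A, -0.15 for ASF1B, 0.42 for CCNE1, -0.0630 for LIG1 and 0.0282 for CDC45. With 10 out it was 0.32 for MCM6, 0.20 for PRIM2, 0.0204 for RPA3, 0.0732 for POLD2, -0.0568 for RFC2, -0.15 for CCNE2, -0.0428 for RRM1, -0.13 for ORC6, -0.16 for ASF1B, 0.77 for CCNE1, -0.0630 for LIG1 and 0.14 for CDC45. Without 1 library each, members near zero spanned both signs: RFC2 -0.0225 to 0.0732, CCNE2 -0.0348 to 0.0640, RRM1 -0.0205 to 0.0410, ASF1B -0.0202 to 0.0845, MCM10 -0.0141 to 0.0536 and CDK2 -0.0532 to 0.0248. The cause was not tested. Every member had at least 329 counts in each library, and how depth or the number of libraries limits the calls was not tested.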

Other observations

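Genes of other replication and cell cycle lists, compiled with earlier results known, also moved in both directions. The counts below stand beside 31.9% called higher and 31.6% called lower of all genes tested. Of the genes of at least 10 CPM, 33.4% were called higher and 37.7% lower. Among 13 other initiation factors 4 were higher and 9 lower in the knockout, with a median log2 fold change of -0.27 by edgeR. The kinase CDC7 (-0.27) and its activator DBF4 (-0.29), which fire licensed origins, were both lower, in neighbourhoods at -0.26 and -0.16. DBF4B, of the same list, was lower at -0.49 ± 0.06 in a neighbourhood at 0.08, and stood at -0.57 with that out. RECQL4, a helicase of origin firing, was higher at 0.60 ± 0.05 in a neighbourhood at 0.47. ORC4 was lower at -0.50 ± 0.05 in a neighbourhood at -0.69, and was higher, at 0.19, with its neighbourhood out. Of 19 other fork and polymerase genes 9 were higher and 4 lower, with a median of 0.05. Of 10 other nucleotide supply genes 7 were higher and none lower, with a median of 0.20, among them TK1 (0.21) and DCTPP1, a nucleotide pool cleaning enzyme, at 61.3 ± 3.99 CPM in the knockout and 36.7 ± 1.74 CPM in the control libraries.

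Of 28 other G1/S control genes 9 were higher and 10 lower, with a median of 0.04. These counts are near the shares of all genes tested, 31.9% higher and 31.6% lower. The D-type cyclins CCND2 and CCND1 went opposite ways. CDKN2A was higher at 0.54 in a neighbourhood at -0.14, and CDK6 was lower at -0.51 in a neighbourhood at -0.08. CCND2 averaged 24.3 ± 0.827 CPM in the knockout and 11.6 ± 0.850 CPM in the control libraries, a log2 change of 1.07 ± 0.07 (adjusted p = 7.58e-11). CCND1 averaged 214 ± 10.6 CPM in the knockout and 303 ± 9.30 CPM in the control libraries, a log2 change of -0.50 ± 0.06 (adjusted p = 1.24e-07). Of 9 checkpoint genes 1 was higher and 4 lower, with a median of -0.02, and CHEK1 (-0.38) and WEE1 (-0.39) were among the lower ones. Of 25 G2 and mitosis genes 6 were higher and 13 lower, with a median of -0.14, and their summed level was 4863 to 5009 CPM in the knockout and 5485 to 5704 CPM in the control libraries. The proliferation marker MKI67 was among the lower ones, at -0.67 in a neighbourhood at -0.45. It averaged 648 ± 35.0 CPM in the knockout and 1029 ± 34.7 CPM in the control libraries. That is a large part of the difference in the summed level. AURKB, a mitotic kinase, was among the higher ones, at 0.69 in a neighbourhood at 0.56 (SD, n = 3 each for all means).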
